A study of Mus musculus with 15 samples.

Results

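Levels of 10 transcription factors that maintain the identity of pancreatic beta cells were followed in sorted mouse islet cells. The factors were Nkx6-1, Nkx2-2, Neurod1, Isl1, Pax6, Rfx6, Rfx3, Insm1, Myt1 and St18. They were found by their gene symbols, and all 10 of the 10 had a value in every library and passed the filter on low values, out of 23235 symbols listed and 11254 genes tested. Islets came from mice of a mixed 129J/C57BL/6 background in which a cre recombinase switched on a red fluorescent protein (RFP), and RFP+ cells were divided with aldefluor, a dye that stays inside cells with aldehyde dehydrogenase activity. Control mice are labelled heterozygous (Het) for Foxo1, Foxo3 and Foxo4, where the study's methods call them wild type, and knockout mice were ablated for all 3 genes. The 15 libraries held 3 ALDH- and 2 ALDH+ samples of control mice, and 5 of either population of knockout mice. Cre was driven by RIP-Cre, an insulin promoter active in beta cells, in 9 libraries and by Pdx-Cre, which acts throughout the pancreas, in 6. The 2 control ALDH+ libraries were 1 of each driver. The methods give an age of 6 months and pooled animals for the RIP-Cre mice, and an age was not found for the Pdx-Cre mice. The labels do not say that samples of a group came from separate pools, so p-values measure the spread between these samples, which may be technical.

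Beta cells keep their identity through a network of DNA-binding proteins that activate insulin, glucose sensing and secretion genes and hold genes of other islet cell types silent. Nkx6-1 and Nkx2-2 are homeodomain proteins, Pax6 carries a paired domain and a homeodomain, Isl1 is a LIM-homeodomain protein, and Neurod1 is a basic helix-loop-helix activator of the insulin gene. Rfx6 and Rfx3 share the winged-helix domain of the RFX family, whereas Insm1, Myt1 and St18 are zinc finger proteins. Foxo proteins are forkhead factors that help to preserve this network when beta cells are under metabolic stress.

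The labels were first compared with genes that define the groups. Levels are given as rescaled FPKM, fragments counted relative to transcript length and sequencing depth, after the libraries were brought to a common scale. Foxo1 lay at 0.0985 to 4.05 in knockout libraries and 12.3 to 19.3 in controls. Foxo3 did not separate the genotypes, at 10.03 to 31.2 in knockouts and 13.9 to 22.01 in controls, and Foxo4 was at most 1.29 in any library. Aldh1a3, the aldehyde dehydrogenase of these cells, was at 22.2 to 78.4 in ALDH+ and 0.480 to 4.20 in ALDH- libraries. Insulin transcripts were too abundant to be estimated, Ins1 in all 15 libraries and Ins2 in 3. Fragments, inferred from the confidence bounds, summed to 7490987 to 10057002 per library over genes with a usable estimate. These sums leave out the insulin transcripts that were too abundant, so they are not the full depth. Every value of the 10 factors rested on at least 252 such fragments, a counting error of at most 6.30%.

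Because Foxo proteins bind DNA directly, the 250 bases before each RefSeq start site (build GRCm38.p6) were searched for the forkhead letters TGTTTAC on both strands. Of the 10 factors, 8 had an entry, with 11 promoters between them. Insm1 and St18 had none. The letters stood in 1 of these 11 promoters, against 3.17% of all 32851 promoters. The homeodomain core TAATTA was in 0 of the 11 and in 4.84% of all promoters. The promoter with the match is 1 of 3 entries for Myt1, on the plus strand of chr2:181766779-181767028, and is shown because it holds the letters 2 times in reverse complement, 98 bases and 1 base before the start (capitals). The promoter of Nkx6-1, on the minus strand of chr5:101664712-101664961, is shown beside it because Nkx6-1 was the factor that passed a test below. Of its bases 65.2% are G or C, against 38.0% in the Myt1 promoter and a median of 52.4% over all promoters. A match is a run of letters and not a measured binding site.
Myt1: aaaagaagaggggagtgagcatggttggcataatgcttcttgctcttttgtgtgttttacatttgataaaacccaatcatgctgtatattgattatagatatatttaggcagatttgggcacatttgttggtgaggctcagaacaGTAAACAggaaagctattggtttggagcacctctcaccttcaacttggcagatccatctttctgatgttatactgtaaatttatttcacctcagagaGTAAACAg
Nkx6-1: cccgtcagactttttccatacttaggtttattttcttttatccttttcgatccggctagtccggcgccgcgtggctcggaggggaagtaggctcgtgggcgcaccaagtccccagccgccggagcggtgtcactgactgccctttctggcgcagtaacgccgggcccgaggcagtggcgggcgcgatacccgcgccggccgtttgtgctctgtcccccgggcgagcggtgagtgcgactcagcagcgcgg

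All 10 factors were transcribed in all 4 sorted populations. Neurod1 had the highest mean level over the 15 libraries, 111 ± 25.6 FPKM (SD, n = 15), followed by Insm1 at 104 and Pax6 at 102. St18 stood at 78.2, Nkx6-1 at 53.7, Isl1 at 44.2, Nkx2-2 at 40.8 and Rfx6 at 33.0. Rfx3 at 13.8 and Myt1 at 12.3 closed the order, the latter still above 56.5% of the genes tested. FPKM is a value per length of transcript, so these levels can be set beside each other. Several neighbours in the order were not separated by the spread between libraries: Neurod1 exceeded Insm1 in 8 of 15 libraries, Insm1 exceeded Pax6 in 8, Isl1 exceeded Nkx2-2 in 8 and Rfx3 exceeded Myt1 in 8. In contrast, Rfx6 exceeded Rfx3 in all 15.

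**Figure D1:**
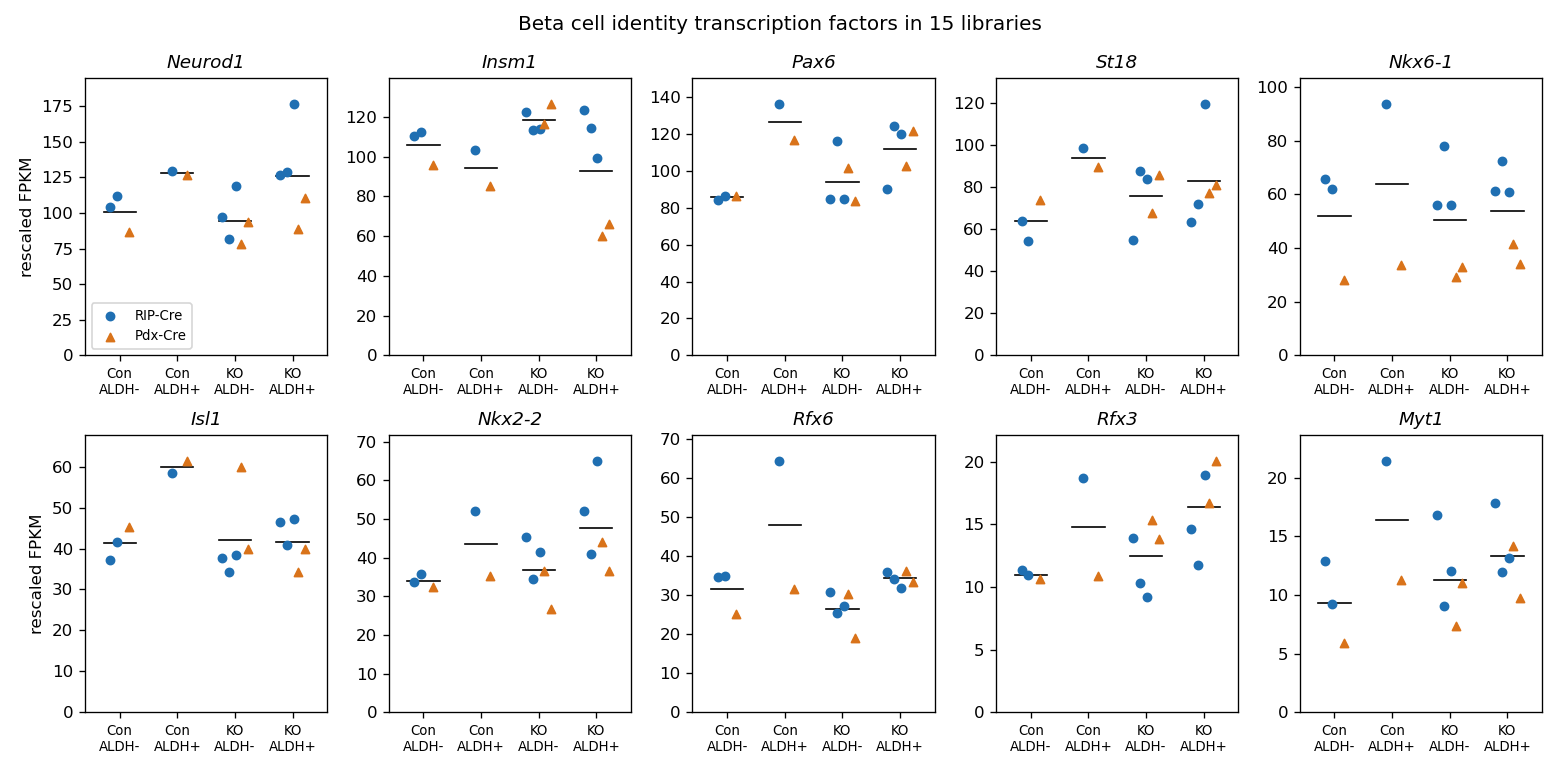
Level of each factor in rescaled FPKM (vertical axes, starting at 0) in control (Con) and Foxo knockout (KO) ALDH- and ALDH+ libraries; each point is 1 library, coloured by cre driver, and each bar is the mean of a group. The 6 Pdx-Cre points of Nkx6-1 lie between 28.1 and 41.4, under all 9 RIP-Cre points, and the 2 Pdx-Cre knockout ALDH+ points of Insm1, at 59.98 and 66.1, are its lowest.

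The main question of the design was whether cells with ALDH activity differ from their ALDH- neighbours. Across both genotypes, with the cre driver as a term in limma, 9 of the 10 factors had higher estimates in ALDH+ cells and Insm1 a lower one, but none passed the threshold of 0.05 on the adjusted p, where 5.86% of all genes tested did. The study's own comparison, in wild-type mice only and by DESeq, lists Pax6, Rfx6, Myt1 and St18 as higher in ALDH+ cells. It differs from the present one in method and in the samples used, and it drew on control mice of the same series. Without control ALDH+ replicate 1, 3 genes in all passed in place of 659. At an unadjusted p under 0.05 the count over all libraries was 5 of the 10 factors, against 20.6% of all genes. The median difference of the 10 was 0.36 on the log2(FPKM + 1) scale, and that of all genes was -0.0091. All differences below are on this scale, with adjusted p-values from limma after Benjamini and Hochberg over all genes tested.

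Pax6, which is needed for the formation of islet endocrine cells and for insulin production, came closest to the threshold. Its RIP-Cre ALDH- libraries stood at 84.0 and 86.4 in controls and at 84.9, 116 and 84.5 in knockouts. The RIP-Cre ALDH+ libraries stood at 136 in the control and at 90.1, 124 and 120 in knockouts. With Pdx-Cre, ALDH- libraries were at 86.2 in the control and at 101 and 83.6 in knockouts, and ALDH+ libraries at 117 in the control and at 102 and 121 in knockouts. Thus ALDH- libraries mostly lay near the low end, with knockout replicate 2 at 116 and knockout replicate 4 at 101 above the others. The populations overlapped under RIP-Cre. Under Pdx-Cre they did not, by the narrow margin of 102 against 101, and 16.5% of all genes separated there in either direction. The fitted difference was 0.40 ± 0.12 (SE), with an adjusted p of 0.0574. It was 0.45 within the RIP-Cre and 0.35 within the Pdx-Cre libraries. With 1 library left out the adjusted p ranged up to 0.339, without control ALDH+ replicate 1. Leaving out knockout ALDH- replicate 2 gave an adjusted p of 0.0327, knockout ALDH- replicate 4 gave 0.0475 and knockout ALDH+ replicate 1 gave 0.0343.

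Rfx6 directs endocrine differentiation and, in mature beta cells, the genes of calcium channels and insulin secretion. RIP-Cre ALDH- libraries were at 34.7 and 35.0 in controls and at 30.9, 25.5 and 27.2 in knockouts. RIP-Cre ALDH+ libraries were at 64.5 in the control and at 35.9, 34.1 and 31.9 in knockouts. Pdx-Cre ALDH- libraries were at 25.2 in the control and at 30.3 and 18.9 in knockouts, and ALDH+ libraries at 31.5 in the control and at 36.2 and 33.4 in knockouts. The control ALDH+ library of RIP-Cre stood apart, with the next highest value at 36.2. Within knockouts every ALDH+ library lay above every ALDH- library, as in either direction for 1.72% of the genes tested, and Rfx6 was the only 1 of the 10 factors to do so. The difference was 0.47 ± 0.15, with an adjusted p of 0.0789. It fell to 0.25 (adjusted p 0.576) without that control library, control ALDH+ replicate 1. Conversely it was 0.67 (adjusted p 0.0269) without control ALDH+ replicate 2, and 0.53 (adjusted p 0.0385) without knockout ALDH- replicate 4. Within the drivers it was 0.57 for RIP-Cre and 0.41 for Pdx-Cre.

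Neurod1 binds E-boxes of the insulin promoter and is needed for beta cell maturation. RIP-Cre ALDH- libraries were at 104 and 112 in controls and at 97.1, 81.8 and 119 in knockouts. RIP-Cre ALDH+ libraries were at 129 in the control and at 127, 129 and 177 in knockouts. Under this driver all ALDH+ libraries exceeded all ALDH- libraries, which was true in either direction of 5.51% of the genes tested, and Neurod1 was the only 1 of the 10 factors with this pattern. Pdx-Cre ALDH- libraries were at 86.3 in the control and at 78.0 and 93.8 in knockouts, and ALDH+ libraries at 127 in the control and at 88.4 and 111 in knockouts. The fitted difference was 0.40 ± 0.13 (adjusted p 0.0793), with 0.40 in RIP-Cre and 0.37 in Pdx-Cre libraries.

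Nkx2-2 holds alpha cell genes silent in beta cells. RIP-Cre ALDH- libraries were at 33.8 and 35.8 in controls and at 45.3, 34.5 and 41.4 in knockouts. RIP-Cre ALDH+ libraries were at 52.0 in the control and at 52.0, 41.0 and 65.1 in knockouts. Pdx-Cre ALDH- libraries were at 32.5 in the control and at 36.4 and 26.8 in knockouts, and ALDH+ libraries at 35.2 in the control and at 44.0 and 36.4 in knockouts. The populations overlapped under both drivers, and the difference of 0.37 ± 0.13 had an adjusted p of 0.120. Nkx6-1, which sustains insulin content and glucose sensing, gave 0.26 ± 0.13 (adjusted p 0.272). This was 0.12 without control ALDH+ replicate 1, its highest library at 93.9.

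Isl1, which acts with the cofactor Ldb1 on insulin and maturation genes, differed most in controls. Control ALDH- libraries stood at 37.2 and 41.6 with RIP-Cre and at 45.4 with Pdx-Cre, and control ALDH+ libraries at 58.4 and 61.5. Knockout ALDH- libraries stood at 37.7, 34.3 and 38.5 with RIP-Cre and at 59.98 and 39.8 with Pdx-Cre. Knockout ALDH+ libraries stood at 46.4, 40.7 and 47.1 with RIP-Cre and at 34.2 and 39.98 with Pdx-Cre. The control populations did not overlap and the knockout populations did. With 2 control libraries against 3, Isl1, Neurod1, Pax6 and St18 separated in this way, 4 of 10 factors, against 30.9% of all genes. The difference was 0.51 ± 0.22 in controls (adjusted p 0.306) and 0.0066 ± 0.15 in knockouts (adjusted p 0.989), but the interaction of genotype and ALDH, -0.50 ± 0.27, had an adjusted p of 0.999.

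Rfx3, known for cilia and for glucokinase expression, and the zinc finger paralogues Myt1 and St18 have longer transcripts than 97.9%, 87.0% and 89.6% of the genes tested, whereas the other factors lie between 28.3% and 65.1%. Length here is a relative value inferred from fragments per FPKM, and not an annotated length. Myt1 gave the highest estimate of the 10, 0.54 ± 0.19 (adjusted p 0.106). Its ALDH- libraries were at 12.9, 9.23 and 5.93 in controls and at 16.8, 9.03, 12.1, 7.37 and 11.03 in knockouts. Its ALDH+ libraries were at 21.5 and 11.3 in controls and at 17.8, 11.97, 13.2, 14.2 and 9.74 in knockouts, so that the populations overlapped.

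St18 was at 64.0, 54.1 and 73.8 in control ALDH- libraries and at 98.4 and 89.6 in control ALDH+ libraries. In knockouts it was at 54.8, 87.7, 83.6, 67.7 and 85.5 in ALDH- and at 63.4, 71.9, 120, 77.4 and 80.9 in ALDH+ libraries. Controls therefore did not overlap and knockouts did, with an overall difference of 0.33 ± 0.16 (adjusted p 0.248). Rfx3 was at 11.3, 10.9 and 10.7 in control ALDH- libraries and at 18.7 and 10.9 in control ALDH+ libraries. In knockouts it was at 13.9, 10.3, 9.24, 15.3 and 13.8 in ALDH- and at 14.6, 11.7, 18.9, 16.7 and 20.1 in ALDH+ libraries. Its difference was 0.35 ± 0.18 (adjusted p 0.274) and 0.095 without control ALDH+ replicate 1.

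Transcript length moved with this comparison across all genes. The median difference between ALDH+ and ALDH- went from -0.38 in the shortest 10% of the genes to 0.23 in the longest 10%. With the length trend removed, the difference was 0.065 for Rfx3, 0.18 for St18 and 0.40 for Myt1, and it stayed between 0.27 and 0.44 for the other 6 factors with higher estimates. What produced the length trend was not tested.

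Insm1, a zinc finger repressor needed for the maturation of endocrine cells, was the factor with a lower estimate in ALDH+ cells. In RIP-Cre libraries it was at 110 and 112 in control ALDH-, 103 in control ALDH+, 123, 113 and 114 in knockout ALDH-, and 123, 114 and 99.2 in knockout ALDH+ cells. With Pdx-Cre, it was at 95.7 in control ALDH-, 85.3 in control ALDH+, 116 and 127 in knockout ALDH-, and 59.98 and 66.1 in knockout ALDH+ cells. Values were therefore nearly level under RIP-Cre, and under Pdx-Cre all 3 ALDH+ libraries lay below all 3 ALDH- libraries. The difference was -0.26 ± 0.13 over all libraries (adjusted p 0.285), -0.08 ± 0.14 within RIP-Cre and -0.55 ± 0.20 within Pdx-Cre. The interaction of driver and ALDH was -0.62 ± 0.21, with an unadjusted p of 0.00990 and an adjusted p of 0.995. None of the 10 factors passed for this interaction, where the share of all genes was 0% and 512 genes had an unadjusted p under 0.05.

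**Figure D2:**
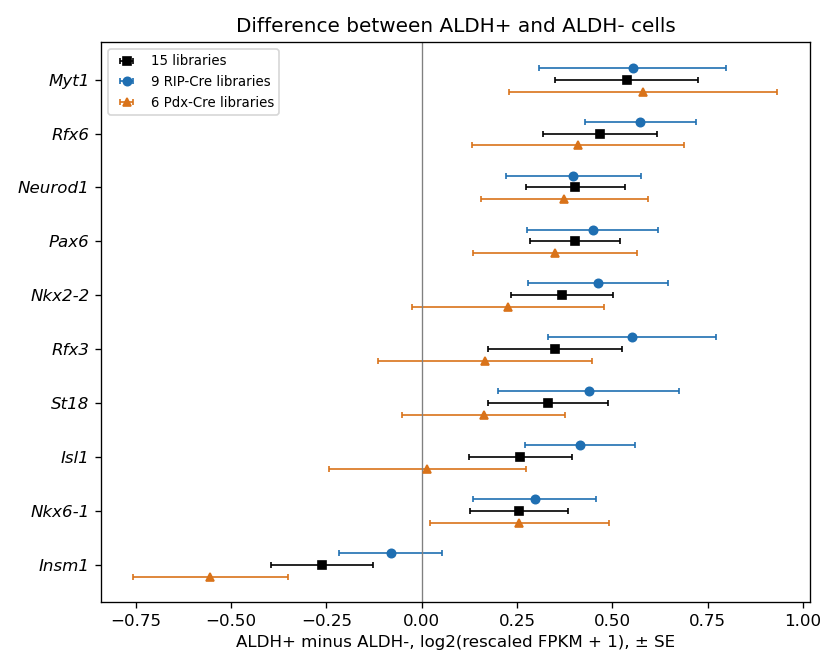
Fitted difference between ALDH+ and ALDH- cells on the log2(rescaled FPKM + 1) scale (horizontal axis, with SE) for each factor, over 15 libraries and within each cre driver. Insm1 lies left of 0 in all 3 fits, at -0.55 in Pdx-Cre libraries, and the other 9 factors lie to the right, from 0.26 to 0.54 over 15 libraries.

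Within Pdx-Cre the ALDH+ values exceeded the ALDH- values without overlap for Nkx6-1, Pax6 and Rfx6 and lay below them for Insm1. This is 4 of 10 factors, where 16.5% of all genes separated in either direction with 3 libraries against 3. Over all 15 libraries, none of the 10 separated the populations, and 0.684% of all genes did. Markers of other cell types were also set side by side under Pdx-Cre, where the sums of alpha and delta cell markers separated the populations and those of acinar markers overlapped. No alpha, delta or acinar marker was called for ALDH over all libraries or for its interaction with the driver. The summed level of 4 alpha cell markers was 10170 to 39040 in its ALDH- and 270.2 to 5939 in its ALDH+ libraries, that of 3 delta cell markers 8995 to 15280 and 777 to 3159, and that of 11 acinar markers 46.5 to 448 and 24.9 to 1533. The PP cell hormones Ppy and Pyy fell in ALDH+ cells over all libraries (-2.08 and -2.06, adjusted p 0.0140 and 0.0315), and without control ALDH+ replicate 1 their adjusted p was 0.203 and 0.321. With the length trend removed they gave -1.46 and -1.45 (adjusted p 0.117 and 0.168). The part of these cells in the values of the factors was not tested. Endothelial markers summed to at most 1.51 and mesenchymal markers to at most 0.712 in any library.

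The same comparison was then made within each genotype. In controls 9 of 10 factors had higher estimates in ALDH+ cells, from 0.34 for Rfx3 to 0.82 for Myt1, and Insm1 gave -0.11. None passed, against 1.12% of all genes, and 5 had an unadjusted p under 0.05, against 14.02% of all genes. In the study's DESeq comparison of wild-type mice, as said above, Pax6, Rfx6, Myt1 and St18 were listed as higher. That list comes from control mice of this same series, so it is not separate support. Its means over all samples lie nearer to the ALDH- means, as they would with fewer ALDH+ than ALDH- libraries. The number of its ALDH+ libraries is not stated in the study. The estimates given here lean on 2 ALDH+ libraries. With 1 library left out that of Rfx6 lay between 0.12 and 0.96 and that of Rfx3 between -0.17 and 0.80, its lowest and negative value being without control ALDH+ replicate 1. The estimate of Rfx3 was -0.053 with the length trend removed. In knockouts 9 of 10 estimates were above 0, up to 0.40 for Neurod1 (adjusted p 0.265), and Insm1 gave -0.41 (adjusted p 0.268). The sign was not settled for Isl1, at 0.0066, which gave -0.0090 without rescaling, -0.39 within Pdx-Cre and -0.053 to 0.14 with 1 library left out, nor for St18, at 0.11, which gave -0.042 to 0.20 with 1 library left out. None passed, against 0.0178% of all genes (2 genes), and 4 had an unadjusted p under 0.05, against 13.04% of all genes. The difference between these 2 contrasts was negative for 9 of 10 factors, the lowest being -0.57 ± 0.37 for Myt1, and none passed, where 0% of all genes did and 471 genes had an unadjusted p under 0.05. With 1 library left out this difference turned positive for 4 of the 9, reaching 0.26 for Rfx6, 0.15 for Neurod1, 0.10 for Nkx2-2 and 0.027 for Nkx6-1, in each case without 1 of the 2 control ALDH+ libraries (replicate 2 for Neurod1, replicate 1 for the others).

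The effect of Foxo ablation itself was compared over both ALDH populations. None of the 10 factors passed, where 0.116% of all genes did. Rfx6 had the lowest estimate, -0.32 ± 0.15, with an unadjusted p of 0.0467 and an adjusted p of 0.644. Its estimate was -0.61 ± 0.15 (adjusted p 0.272) within RIP-Cre libraries, of which the single control ALDH+ library at 64.5 was the highest, and 0.038 ± 0.28 within Pdx-Cre libraries. Without that library the value over all the others was -0.11. Isl1 followed at -0.26 ± 0.14 (adjusted p 0.714), and was -0.24 within RIP-Cre and -0.30 within Pdx-Cre. The remaining 8 factors lay between -0.092 and 0.16, and those of Myt1 and St18 were at 0.0020 and 0.0081. For Pax6 the 95% interval reached from -0.28 to 0.22, and for Neurod1 from -0.36 to 0.19, so larger effects of the knockout on these 2 factors lay outside the interval, whereas for Myt1 it was wider, -0.39 to 0.40. The tables give 1 level per gene, so the Myt1 promoter with the forkhead letters has no level of its own.

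The cre driver gave the only call among the 10 factors. Nkx6-1 was lower in Pdx-Cre than in RIP-Cre libraries in every group. Control ALDH- libraries stood at 65.7 and 62.1 with RIP-Cre and at 28.1 with Pdx-Cre, and control ALDH+ libraries at 93.9 and 33.7. Knockout ALDH- libraries stood at 56.0, 77.9 and 56.2 with RIP-Cre and at 29.1 and 33.1 with Pdx-Cre, and knockout ALDH+ libraries at 61.3, 72.5 and 60.8 against 41.4 and 34.1. The 9 RIP-Cre libraries (56.0 to 93.9) and the 6 Pdx-Cre libraries (28.1 to 41.4) did not overlap, as was the case for 1.95% of all genes, and no other factor of the 10 showed this. The fitted difference was -1.01 ± 0.12, a fold of 0.496, with an adjusted p of 0.000117. Of all genes tested 9.69% passed this comparison, and 3.82% were lower in Pdx-Cre. The difference stayed between -1.08 and -0.94 with any 1 library left out, with adjusted p-values of at most 0.000916. The study's methods sort ALDH- and ALDH+ cells out of the same dispersed islets, and limma took every library as independent. Where libraries of both populations share a preparation, the p-values for the driver, and those for the knockout, may be too small. The libraries of both drivers differ in mouse line and sorted cells, so driver, line and preparation cannot be told apart, and in such bulk samples fewer cells with the transcript cannot be told apart from less transcript per cell.

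Of the other factors, 6 had lower estimates in Pdx-Cre and 3 higher. Myt1 gave -0.49 ± 0.18 (adjusted p 0.0980), Nkx2-2 -0.34 ± 0.13 (0.109), Insm1 -0.33 ± 0.13 (0.111), Neurod1 -0.30 ± 0.12 (0.129) and Rfx6 -0.28 ± 0.14 (0.225). Pax6, St18, Isl1 and Rfx3 lay between -0.033 and 0.11. The 95% intervals of these 4 and of Rfx6 took in 0. With 1 library left out, Pax6 (-0.079 to 0.011), St18 (-0.025 to 0.13) and Isl1 (-0.021 to 0.17) turned direction. The median of the 10 was -0.29, and that of all genes 0.0030.

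Several markers of islet cell types differed along with Nkx6-1, in a comparison that 9.69% of all genes passed and where 3.82% were lower in Pdx-Cre. Of 7 beta cell markers tested, 5 fell: the glucose transporter Slc2a2 (-2.86), Ucn3, a hormone of mature beta cells (-1.68), the zinc transporter Slc30a8 (-1.65), Mafa (-1.23) and Pdx1 (-0.97). Slc2a2 was at 96.7 to 233 in RIP-Cre and 8.77 to 24.9 in Pdx-Cre libraries. Iapp and G6pc2 did not pass, and 1 of the 7 estimates was higher in Pdx-Cre. The summed beta cell markers, mostly Iapp, overlapped, at 34380 to 121600 in RIP-Cre and 72930 to 122600 in Pdx-Cre libraries. Both alpha cell markers tested rose, the glucagon gene Gcg by 3.14 and the factor Irx2 by 1.21. Of 3 delta cell markers Sst and Rbp4 rose, and of 2 PP cell markers Ppy rose, by 2.32. With 1 library left out, the highest adjusted p was 0.0692 for Mafa (without knockout ALDH- replicate 5), 0.0610 for Irx2 (without knockout ALDH+ replicate 5) and 0.0813 for Rbp4 (without control ALDH- replicate 3), and the calls of the other 7 markers held in all 15 such fits. The summed alpha cell markers reached 152 to 1021 in RIP-Cre and 270.2 to 39040 in Pdx-Cre libraries. In the same order, the summed acinar markers reached 23.5 to 36.3 and 24.9 to 1533, and the summed immune markers 20.7 to 37.0 and 42.4 to 170. The immune sum was mostly Cd68, at 19.1 to 36.5 and 34.7 to 158, with Cd74 at 0.402 to 6.25 and 3.19 to 22.1. The other immune markers did not go with it: Ptprc was at most 0.0194 and 0.0234, and Lyz2 at most 0.692 and 0. The part of other cell types in the level of Nkx6-1 was not tested.

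**Figure D3:**
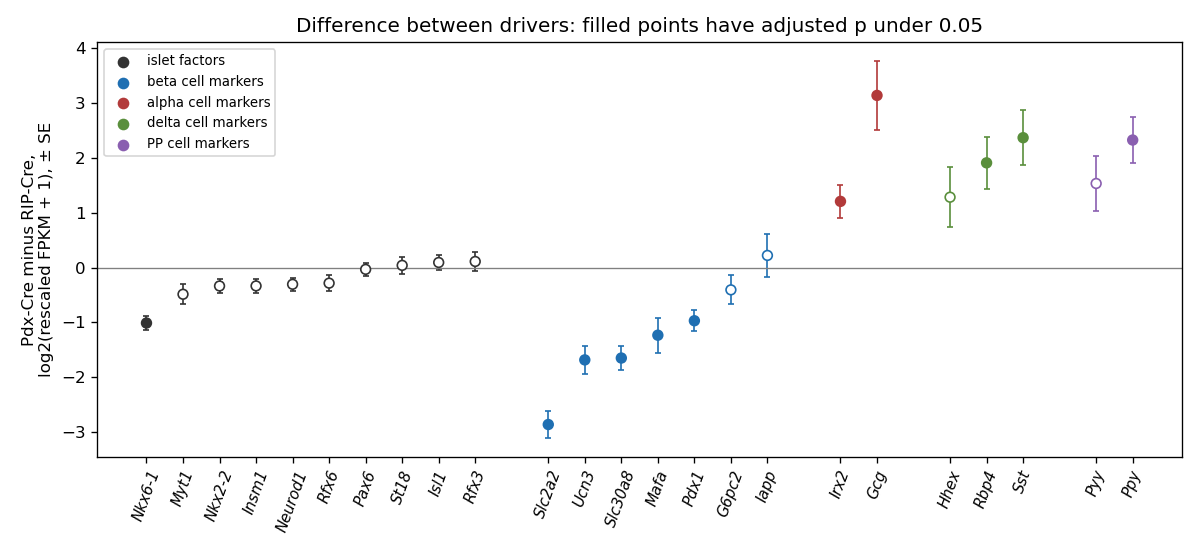
Fitted difference between Pdx-Cre and RIP-Cre libraries on the log2(rescaled FPKM + 1) scale (vertical axis, with SE) for the 10 factors and for markers of islet cell types; filled points have an adjusted p under 0.05. Nkx6-1, at -1.01, is the filled point among the factors, beta cell markers reach down to -2.86 and Gcg up to 3.14.

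Genes around the factors were counted from lists of related genes. In the ALDH comparison 5.86% of all genes were called, and between drivers 9.69%, so that a count near these shares says nothing particular of a list. Of 32 other islet and pancreas factors, 19 were tested. In the ALDH comparison 1 of them, a share near that of all genes, rose: Glis3, a zinc finger activator of insulin, from 19.7 to 27.7 in ALDH- libraries to 31.5 to 39.3 in ALDH+ libraries (0.52 ± 0.12, adjusted p 0.0188). Its adjusted p was 0.203 without control ALDH+ replicate 1 and 0.0679 with the length trend removed. Between drivers Pdx1 and Mafa fell and Irx2 rose. Of 19 paralogues 5 were tested, and 1 of these, Rfx7, rose in ALDH+ cells (0.68 ± 0.19, adjusted p 0.0486), whereas Rfx2 (0.91, adjusted p 0.102), Rfx1, Rfx5 and Myt1l did not pass. The call of Rfx7 held in 2 of the 15 fits that leave out 1 library, and its adjusted p was 0.311 without control ALDH+ replicate 1 and 0.265 with the length trend removed. Of 24 partner proteins and co-regulators, such as Ldb1 for Isl1 and Tcf3 for Neurod1, 23 were tested and none passed in the ALDH comparison. Between drivers 2 of the 23 rose, a share near that of all genes, Dnmt1 and Hdac3, by 0.59 and 0.56, and their adjusted p was 0.0543 and 0.0683 without control ALDH+ replicate 2.

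Of 32 beta cell genes that these factors bind or regulate, 30 were tested. In ALDH+ cells 4 rose and none fell, where 5.86% of all genes were called in either direction: Pclo, a scaffold of the secretory site, by 0.86 (adjusted p 0.00296), the calcium channel genes Cacna1a by 0.78 and Cacna1c by 0.60, and Snap25 of the exocytosis machinery by 0.55. The median of the 30 was 0.015. Without control ALDH+ replicate 1 none of these 4 passed, with adjusted p-values of 0.0807 for Pclo, 0.175 for Cacna1c, 0.188 for Snap25 and 0.211 for Cacna1a. With the length trend removed, Snap25 passed (0.60, adjusted p 0.0390), Pclo gave 0.39 (adjusted p 0.0559), and the 2 calcium channel genes had adjusted p-values of 0.117 and 0.232. Between drivers, where 9.69% of all genes were called and 3.82% were lower in Pdx-Cre, 2 of the 30 rose (Pam and Chgb) and 8 fell, among them Slc2a2, Slc30a8, Ucn3, the incretin receptor gene Glp1r (-0.98) and Sytl4 (-1.23), and the median was -0.21. With the driver comparison taken on FPKM as deposited the split over all genes was 523 higher and 546 lower, against 661 and 430 after rescaling. Of 4 duct and 2 immune markers tested, Krt19, Cd68 and Cd74 were higher in Pdx-Cre, as were the acinar genes Cela1 and Ctrb1. The immune markers Ptprc and Lyz2 were below the filter. The calls of Krt19, Cela1 and Ctrb1 held in 12, 11 and 11 of the 15 fits that leave out 1 library, and that of Trpm5, among the 8 that fell, in 3.

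How the factors varied together was described over the 15 libraries, which share groups and drivers. Of 45 pairs, 38 had a positive Pearson's r, with a median of 0.32. The share of positive pairs over all genes was not worked out, so this count says nothing particular of the factors. Nkx2-2 and Neurod1 gave the highest r, 0.67, followed by Nkx2-2 with Myt1 at 0.64 and Pax6 with St18 at 0.62. Insm1 ran against the others most, with r of -0.41 to Rfx3 and -0.38 to Pax6. The genes nearest to each factor were picked for the highest r, without a test. With so many genes and few libraries, a high r can come from the picking alone. Over all genes tested, the levels most like those of Nkx6-1 were of Cadps, a priming factor of dense core vesicles (0.94), Chic1 (0.94) and Il6ra (0.93). For Nkx2-2 they were Tnrc6b, Arid1a and Trim44 (0.89 to 0.92), for Neurod1 Baz2a, Rptor and Zfyve26 (0.88 to 0.92), and for Pax6 Oas1b, Dhx57 and Fnbp4 (0.88 to 0.91). For Insm1 they were Gm10941, Cntfr and Srebf1 (0.88 to 0.92), and for Rfx6 Dap3, Peg3 and Fam199x (0.86 to 0.87). Isl1 was nearest to Olfr99, Mks1 and Agbl5 (0.83 to 0.85), Rfx3 to Lrrc49 and Sos2 (0.85 and 0.84), Myt1 to Kidins220, Lin7c and Usp31 (0.85) and St18 to Ubr4, Sp140 and Uprt (0.83 to 0.87).

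**Figure D4:**
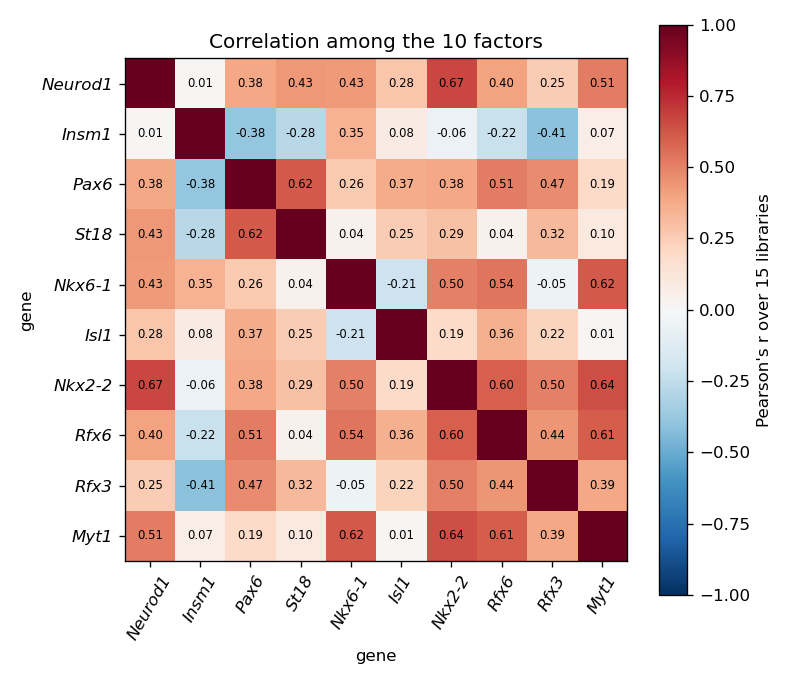
Pearson's r between the log2(rescaled FPKM + 1) values of each pair of factors over 15 libraries, with genes on both axes ordered by mean level and the colour running from -1 (blue) to 1 (red). The highest r is 0.67, for Nkx2-2 and Neurod1, and Insm1 has the lowest, -0.41 with Rfx3.

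In the annotation of the tables (build mm9) the factors lie on 6 chromosomes. Nkx2-2, Neurod1, Pax6, Insm1 and Myt1 are on chromosome 2, with Insm1 at chr2:146047733-146050754 and Nkx2-2 at chr2:147003282-147012138. Nkx6-1 lies at chr5:102088216-102093730, Rfx6 on chromosome 10, Isl1 on chromosome 13, Rfx3 on chromosome 19 and St18 on chromosome 1. For the neighbours Insm1 and Nkx2-2 the estimates in ALDH+ cells differed in sign, -0.26 for the former and 0.37 for the latter. Neither passed in limma (adjusted p 0.285 and 0.120), and the difference between these genes was not tested.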

How the data were processed

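RNA of sorted RFP+ islet cells was selected by poly-A and sequenced from TruSeq libraries. The submitters' processing notes name bcl2fastq 1.8.4, TopHat2 2.0.4 and build mm9. The authors deposited 1 table per library with FPKM values and their confidence bounds in the column layout of Cufflinks, whose version and annotation are not given in the sources used here. Fragments were worked out from the width of the confidence interval, and 66.2% of values under 500 were whole within 0.02. Relative transcript length was taken as these fragments per FPKM, centred within each library. Symbols listed more than once (248) and 63 lines with a failed or too-deep estimate were left out, which left 22924 genes.

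FPKM values were rescaled between libraries by an unweighted TMM factor, which trims at each end 30% of the log ratios and 5% of the mean levels. Values were then raised by a pseudocount of 1, taken to log2 and tested in R 4.3.3 by limma 3.58.1, with a variance trend and with group and cre driver as terms. Folds on this scale understate the change of low genes. A gene was tested at a mean rescaled FPKM of at least 1. The p-values were two-sided and adjusted by Benjamini and Hochberg within each of 7 contrasts, with a threshold of 0.05. The script was tested on simulated data. The factors and lists were chosen with earlier results of these data known. All factors are named, from each list the called genes with the smallest p-values, and for each factor the 3 genes of highest Pearson's r. Some genes that this rule would name are not reported here. Alternatives were another pseudocount, filter and scaling, no driver term, each driver alone, a replicate block, removal of the length trend and each library left out.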

Additional observations from a re-analysis of the deposited data

Results flagged for a closer look

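In 20 sets of 5 knockout libraries, 10 factors in ALDH- and in ALDH+ cells, 1 value lay far from the rest by Dixon's test: Isl1 at 59.98 FPKM in Foxo knockout ALDH- replicate 4, a Pdx-Cre library. The other 4 libraries of that group were at 34.3 to 39.8. Chance alone marks about 1 in 20 such sets.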

How the results depend on the processing

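Of the 10 factors, Nkx6-1 was called lower in Pdx-Cre in all 21 fits of that contrast (none was made with no driver term, with each driver alone or with the replicate block), and none was called in the other 6 contrasts, except in the ALDH contrast averaged over genotypes, where leaving out 1 library gave 0 to 2 calls (Pax6, Rfx6). Over all genes this contrast gave 659 calls, and 172 without a driver term, 153 in RIP-Cre libraries only, 4 in Pdx-Cre libraries only, 192 with the length trend removed and 3 to 816 with 1 library left out, the lowest without control ALDH+ replicate 1. The replicate block left 9. Same-numbered knockout libraries correlated at 0.037 to 0.21 in their deviations. The pairs numbered 4 and 5 share 1 value, because deviations from a mean of 2 libraries mirror each other. These correlations, all above 0, cannot show whether same-numbered samples were paired, and the main fit did not use the numbers. Foxo knockout against control gave 13 calls, and 42 without a filter, 6 without a driver term, 0 in Pdx-Cre libraries only (372 at an unadjusted p under 0.05, limma) and 1 to 15 with 1 library left out.

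Some estimates of Foxo knockout against control turned direction, among them those of Rfx6 and Rfx3, the lowest and highest of the 10. They became -0.0103 for Myt1 and -0.0031 for St18 without rescaling. In RIP-Cre libraries only they were 0.0035 for Neurod1, -0.17 for Rfx3 and -0.21 for Myt1. In Pdx-Cre libraries only they were 0.15 for Nkx6-1, 0.0156 for Pax6, 0.038 for Rfx6, -0.043 for Insm1 and -0.066 for St18. With 1 library left out they ran from -0.22 to 0.038 for Nkx6-1, -0.087 to 0.023 for Pax6, -0.082 to 0.41 for Rfx3, -0.0068 to 0.090 for Insm1, -0.11 to 0.11 for Myt1 and -0.067 to 0.065 for St18. The cause of these turns was not tested. FPKM tables keep no counts, and 2 control ALDH+ libraries limit the precision of every contrast that uses them.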
